A study of Mus musculus with 16 samples.

Results

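Bone morphogenetic protein (BMP) ligands, receptors and secreted antagonists were followed in mouse embryonic stem (ES) cells grown on a layer of PA6 cells and in PA6 cells grown alone. The set held 9 genes, namely the ligands BMP2, BMP4 and BMP7, the receptors BMPR1A and BMPR2, and the secreted antagonists NOG, CHRD, GREM1 and FST. They were taken by exact target name, giving 9 of 30854 names and 14 of 45281 probes of the Illumina MouseWG-6 v2.0 BeadChip. Of these, 8 probes for 7 genes passed a filter on detection and were tested. BMP2 and GREM1 did not pass it.

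PA6 cells are bone marrow stroma of the mouse, kept as a line. The ES cells were a knock-in line in which the τ promoter drives a green fluorescent protein (τ-EGFP), and they had been kept on fibroblasts before. RNA was taken at day 7 of serum-free culture. For ES/PA6 co-cultures there were 2 arrays with no factor added (-GFs), 3 with recombinant FGF2 and 2 with recombinant BMP4. For PA6 mono-cultures there were 3 in each of these conditions. Per the labels FGF2 was used at 20 ng/ml and BMP4 at 10 ng/ml, while the methods state a lower dose of BMP4. The methods state that the factor was withdrawn after 3 days, while the labels describe its presence for all 7 days. The arrays can therefore show transcripts at day 7, and not the first response. Replicates are described as biological replicates with 1 well per condition.

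BMP ligands are secreted dimers that bind a complex of type I and type II serine/threonine kinase receptors, which then phosphorylate SMAD1, SMAD5 and SMAD9. Noggin, chordin, gremlin and follistatin bind ligands outside the cell and keep them from the receptors. In the early embryo BMP signalling favours mesoderm and surface ectoderm, and its antagonists favour neural fate. The BMP4 added to the medium is a protein, whereas the values below are of the transcripts made by the cells.

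BMP4 was the member called within both kinds of culture, as described below, and the stretch of DNA around the start of its gene is shown for that reason. It was taken from RefSeq on GRCm38.p6 at chr14:46390620-46390919, minus strand, and runs 5′ to 3′ from 250 bases before the start to 50 bases after it. Capitals mark AGAC, the core of the motif bound by SMAD proteins when read on the strand opposite to GTCT.
Bmp4: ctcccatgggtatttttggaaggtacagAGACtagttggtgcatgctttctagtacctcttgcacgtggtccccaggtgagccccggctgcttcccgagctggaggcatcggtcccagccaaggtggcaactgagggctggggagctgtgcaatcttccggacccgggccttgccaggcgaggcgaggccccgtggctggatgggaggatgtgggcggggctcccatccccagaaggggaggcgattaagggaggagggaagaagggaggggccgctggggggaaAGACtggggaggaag
The promoter held 2 such matches, which began 222 bases before the gene start and 35 bases after it. GTCT on either strand is a short and common word that stood in 88.0% of 32851 mouse promoters of this length. GGCGCC, a GC-rich word also bound by SMAD1 and SMAD5, stood in 11.9% of them and not in that of Bmp4. The 2 words share no ends and cannot overlap. The table of promoters held 5 of the 9 members. GTCT was matched in those of Bmp4, Bmpr1a, Chrd and Grem1, and GGCGCC in those of Bmpr1a, Bmpr2, Chrd and Grem1. These matches describe letters, and binding was not measured.

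Values are background-corrected, quantile-normalized log2 intensities. Levels were compared between arrays for 1 probe and never between probes, since brightness depends on the probe. A probe was counted as detected on an array at a detection p under 0.05. Between 16904 and 21261 probes were detected per array, and arrays of 1 group correlated at 0.973 to 0.986 across genes. The 7 stromal markers were each detected on at least 1 array of every group, and their summed linear intensity was 49640 to 62217 in co-cultures and 91332 to 144419 in PA6 mono-cultures. The 4 pluripotency markers measured summed to 8570 to 8734 in -GFs, 44741 to 53764 in FGF2 and 16486 to 30360 in BMP4 co-cultures, and to at most 765 in PA6 cells. RNA from ES-derived and from stromal cells was hybridized together in the co-cultures, so that fewer cells of a type and less RNA per cell cannot be told apart.

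**Figure D1:**
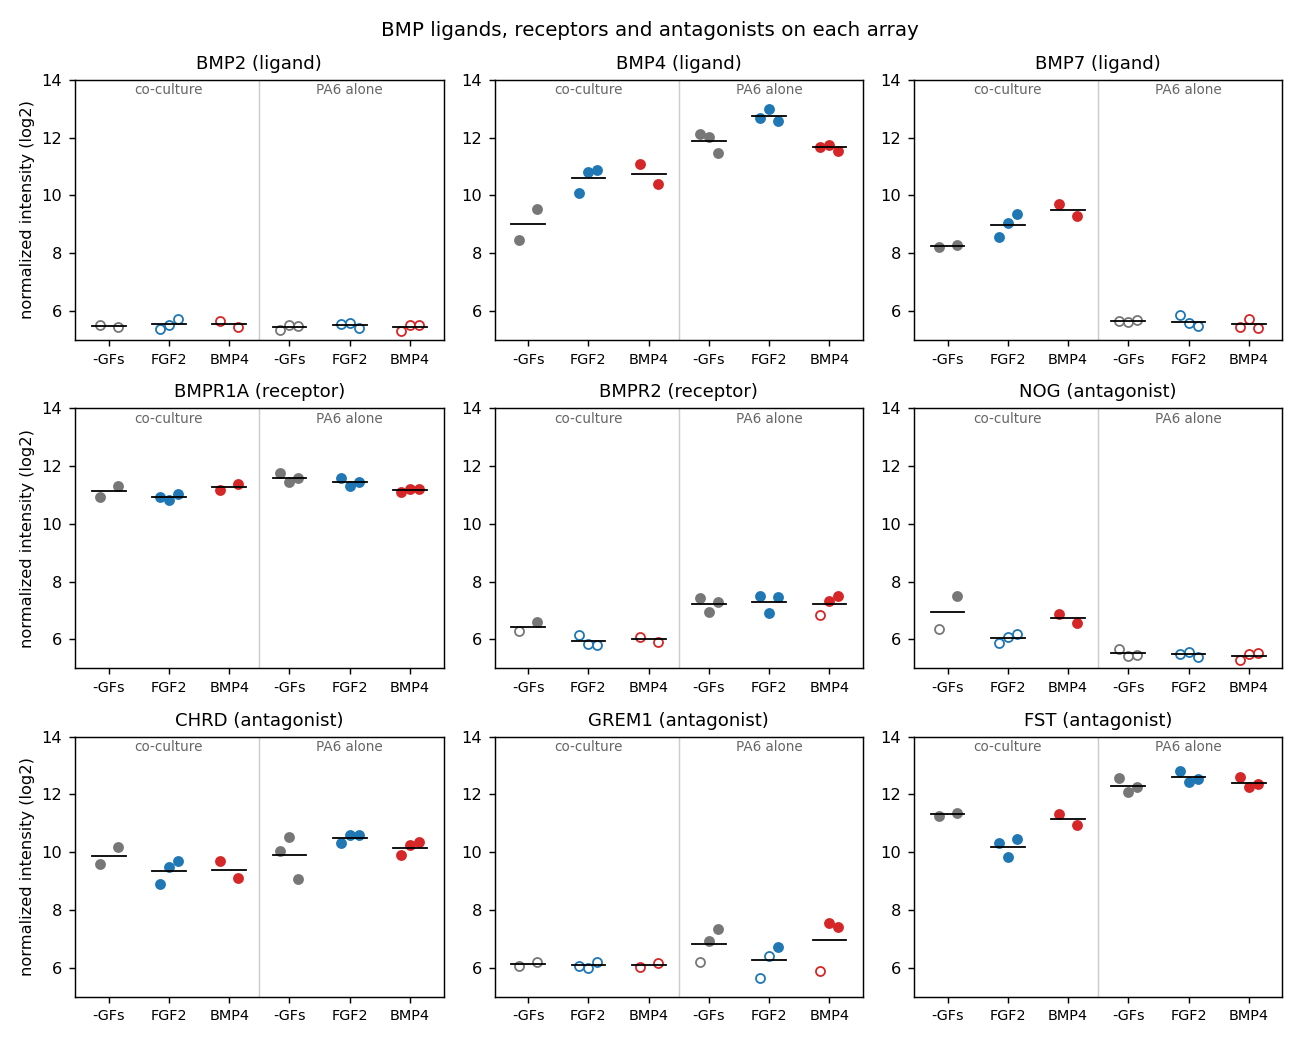
Normalized log2 intensity of each of the 9 genes (vertical axis) on every array, by culture and growth factor (horizontal axis). Each point is 1 array, hollow where the probe was not detected, and the line is the mean of the group; for a gene with several probes the tested one is drawn. For BMP4 and FST every PA6 array lay above every co-culture array, BMP7 was detected in co-cultures alone, and BMP2 was detected on no array.

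In co-cultures the ligand BMP4, which ES cells and mesoderm make, was the member with the widest range. Its normalized intensity was 8.47 and 9.53 in -GFs, 10.08, 10.82 and 10.89 with FGF2, and 11.10 and 10.38 with BMP4. The arrays of either factor all lay above both -GFs arrays. The BMP4 transcript rose with FGF2 by 1.60 ± 0.41 on the log2 scale (SE, 3.03-fold, limma adjusted p = 0.0675). The 95% interval of this change ran from 0.64 to 2.55. BMP4 was among the transcripts that the study picked from these arrays for PCR, so this call is not independent of that choice. The call was lost without -GFs replicate 1, FGF2 replicate 2 or FGF2 replicate 3, with changes between 1.07 and 2.13 over all 7 arrays left out in turn. Within the runs of neighbouring columns in the deposited table that held both groups, FGF2 arrays exceeded -GFs arrays by 1.60 and 1.37. Sums of markers of other cell types were higher on the same FGF2 arrays. The 3 blood cell markers summed to 386 to 471 in -GFs and 3326 to 6531 with FGF2, with PTPRC undetected in both. The 6 endothelial markers summed to 485 to 574 and 1986 to 3231, with 4 of 6 and 2 of 6 undetected, and the pluripotency sum was higher as given above. With FGF2 these sums rested mostly on 1 gene each, LAPTM5 for blood cells and PECAM1 for endothelium. LAPTM5 was 7.67 to 8.04 in -GFs and 11.57 to 12.59 with FGF2, and PECAM1 6.96 to 7.81 and 10.29 to 11.11. TIE1 and ICAM2 were undetected in both groups. The part of these markers in the BMP4 transcript was not tested.

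With BMP4 in the medium, the BMP4 transcript was 1.74 ± 0.44 higher than in -GFs co-cultures (SE), but its limma adjusted p of 0.115 did not pass the threshold of 0.1. The interval of 0.70 to 2.79 leaves out 0. The call depended on the processing, since 6 of 13 alternative settings passed it. In the 1 run of columns with both groups the difference was 0.86. With BMP4 the endothelial markers summed to 1271 to 1611, with all 6 detected, the blood cell markers to 753 to 2515, with all 3 detected, and the pluripotency sum lay above -GFs as well. Between the 2 factors the difference was 0.14 ± 0.41 (SE, interval -0.81 to 1.10) with overlapping arrays.

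In PA6 cells alone the same probe gave 12.11, 12.02 and 11.48 in -GFs, 12.66, 12.99 and 12.59 with FGF2, and 11.68, 11.76 and 11.55 with BMP4. All FGF2 arrays lay above all others. The change with FGF2 against -GFs was 0.88 ± 0.19 (SE, interval 0.45 to 1.31, limma adjusted p = 0.203) and did not pass. In that comparison 4 genes in all (0.027%) passed, and 23 with the replicate number as a block. With BMP4 against -GFs the change of the BMP4 transcript was -0.20 ± 0.19 (SE, interval -0.63 to 0.23). Directly between the factors, the BMP4 transcript was lower with BMP4 than with FGF2, with a log2 difference of -1.08 ± 0.19 (SE, 2.12-fold, limma adjusted p = 0.0947). It was the 1 of 7 members called there, beside 0.31% of all genes. The difference between arrays of the same replicate number, BMP4 minus FGF2, was -0.98, -1.24 and -1.03. The call was kept in 8 of 13 other settings, among them the replicate number as a block (limma adjusted p = 0.0583). It was lost at an adjusted p under 0.05, without a detection filter, with median scaling, with every probe tested and with all arrays in 1 fit. It was kept in only 1 of 9 fits without an array, namely without -GFs replicate 3, while the change stayed between -1.16 and -0.96. The 5 adipocyte markers summed to 1018 to 19981 in PA6 -GFs, 340 to 2369 with FGF2 and 12968 to 156283 with BMP4, with FABP4 undetected in all 3 groups. The sums with FGF2 and with BMP4 did not overlap. Their part in the difference of the BMP4 transcript was not tested.

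By its tested probe, the BMP4 transcript was highest in PA6 cells with FGF2. In order there followed PA6 -GFs, PA6 with BMP4, co-cultures with BMP4, co-cultures with FGF2 and co-cultures in -GFs. The arrays of PA6 -GFs and PA6 with BMP4 overlapped, as did those of co-cultures with BMP4 and with FGF2, and the other neighbours in this order did not. The difference of co-cultures from PA6 cells was -2.87 ± 0.33 (SE, 7.30-fold lower, limma adjusted p = 5.16e-06) in -GFs and -2.15 ± 0.30 (SE, 4.44-fold lower, limma adjusted p = 2.15e-05) with FGF2. With BMP4 in the medium it was -0.92 ± 0.33 (SE, interval -1.64 to -0.21), short of the minimum change of 1. The 2 calls held in every alternative and without each array. The stromal marker sum was lower in co-cultures too, as given above. That sum is weighted to its brightest marker, DCN, with means of 15.41 in co-cultures and 15.89 in PA6 cells in -GFs. The median log2 difference of the 7 stromal markers was -2.48 in -GFs, -1.97 with FGF2 and -1.51 with BMP4. In each condition 5 of the 7 were called lower, beside 20.3% to 22.9% of all genes. The part of these markers in the differences of the BMP4 transcript was not tested. A second BMP4 probe was detected on 2 of 16 arrays, BMP4 replicate 1 at 6.58 and FGF2 replicate 3 at 6.66 of the co-cultures. It failed the detection filter and was not tested in any alternative. Its means were 6.36 with BMP4, 6.23 with FGF2 and 5.73 in -GFs in co-cultures. In PA6 cells it was undetected throughout, with means of 5.61 with BMP4, 5.46 with FGF2 and 5.62 in -GFs. The dim probe thus did not show the higher PA6 level of the tested probe.

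BMP7, a ligand that often pairs with BMP4 or BMP2, was measured in co-cultures alone. Its detected probe gave 8.22 and 8.30 in -GFs, 8.55, 9.04 and 9.35 with FGF2, and 9.71 and 9.29 with BMP4. On all 9 PA6 arrays it was undetected, at 5.42 to 5.86. BMP7 rose with BMP4 in the medium by 1.24 ± 0.29 over -GFs (SE, 2.36-fold, limma adjusted p = 0.0943, interval 0.55 to 1.93). This call was near the threshold. It was lost in 5 of 7 fits without an array, being kept only without FGF2 replicate 1 or FGF2 replicate 3, and with the replicate number or the run of columns as a block (1.24, adjusted p = 0.148, and 0.99, adjusted p = 0.214). With FGF2 the change was 0.72 ± 0.27 (SE, interval 0.09 to 1.35, limma adjusted p = 0.167) and did not pass, and the difference between the factors was 0.52 ± 0.27 (SE, interval -0.11 to 1.15).

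Against the detection level of the PA6 arrays, BMP7 was at least 2.97-fold higher in co-cultures in -GFs, at least 4.52-fold with FGF2 and at least 6.27-fold with BMP4. The limma adjusted p of the fitted differences was 2.52e-07, 5.42e-09 and 5.06e-09 in turn, and the calls held in every alternative that kept the probe and without each array. The probe passed the filter through co-cultures alone, so these tests were not independent of the filter. The second BMP7 probe was undetected on all 16 arrays. The surface epithelium markers, of which all 4 were detected in at least 1 BMP4 co-culture, summed to 13049 to 29276 there and to at most 560 in every other group. Their part in the BMP7 values was not tested.

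BMP2, a close relative of BMP4, was undetected on all 16 arrays, with its probe between 5.30 and 5.72. At this signal no level and no difference of BMP2 was detectable.

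The type I receptor BMPR1A was detected by both of its probes on all 16 arrays and was not called in any comparison. The brighter probe gave 10.94 and 11.32 in -GFs, 10.92, 10.84 and 11.04 with FGF2, and 11.17 and 11.36 with BMP4 in co-cultures. In PA6 cells it gave 11.75, 11.45 and 11.59 in -GFs, 11.58, 11.30 and 11.45 with FGF2, and 11.10, 11.19 and 11.20 with BMP4. All 16 arrays thus lay between 10.84 and 11.75. The changes in co-cultures were -0.20 ± 0.19 with FGF2 (SE, interval -0.65 to 0.25) and 0.13 ± 0.21 with BMP4 (SE, interval -0.36 to 0.62). In PA6 cells the BMP4 arrays lay below all -GFs arrays, with a change of -0.43 ± 0.13 that did not pass (SE, interval -0.72 to -0.14, limma adjusted p = 0.53). The dimmer probe gave a change of -0.50 ± 0.24 in that comparison (SE, interval -1.04 to 0.05), with overlapping arrays. Co-cultures differed from PA6 cells by -0.46 ± 0.16 in -GFs (SE, limma adjusted p = 0.0192) and -0.51 ± 0.14 with FGF2 (SE, limma adjusted p = 0.00517), both under the minimum change of 1. The dimmer probe did not follow, with differences of -0.18 ± 0.24 and 0.17 ± 0.21 (SE).

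BMPR2, the type II receptor that pairs with BMPR1A, was dim. Its tested probe was detected on 8 of 9 PA6 arrays, where it gave 7.43, 6.96 and 7.31 in -GFs, 7.49, 6.93 and 7.46 with FGF2, and 6.83 (undetected), 7.34 and 7.52 with BMP4. In co-cultures it was detected on 1 of 7 arrays, -GFs replicate 2 at 6.59, and the others lay between 5.82 and 6.30. No PA6 array overlapped the co-cultures. Against the detection level, BMPR2 was at least 1.76-fold lower in co-cultures than in PA6 cells with FGF2 and at least 1.85-fold lower with BMP4. The limma adjusted p of the fitted differences, which are no bounds, was 6.83e-05 and 0.000517. The probe passed the filter through PA6 -GFs and PA6 FGF2 arrays alone, where it was high. These tests were therefore not independent of the filter. In -GFs the difference was -0.79 ± 0.24 (SE, limma adjusted p = 0.0105), under the minimum change. The calls were lost without background correction, and with an offset of 50 for BMP4. Of its other probes, 1 was detected on 2 of 16 arrays and 1 on none.

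Follistatin (FST), which binds activin and more weakly BMPs, was the antagonist called with a factor. In co-cultures it gave 11.25 and 11.36 in -GFs, 10.31, 9.83 and 10.44 with FGF2, and 11.34 and 10.94 with BMP4. The FGF2 arrays lay below all others. FST fell with FGF2, with a log2 change of -1.11 ± 0.24 against -GFs (SE, 2.16-fold, limma adjusted p = 0.0422, interval -1.67 to -0.55). The call was lost without -GFs replicate 1, -GFs replicate 2 or FGF2 replicate 2, with changes between -1.24 and -0.93, and was kept in all 13 other settings. BMP4 and FST were the 2 of 7 members called with FGF2 in co-cultures, beside 7.42% of all genes. The FGF2 and -GFs arrays did not overlap for 5 of 7 members (BMP4, BMP7, BMPR2, NOG and FST), while this held for 39.7% of all genes. With BMP4 in the medium the FST value was -0.17 ± 0.26 against -GFs (SE, interval -0.79 to 0.45) and did not pass. BMP7 was then the 1 of 7 members called, beside 3.75% of all genes, and the arrays did not overlap for 3 of 7 members (BMP4, BMP7 and BMPR2), beside 46.1% of all genes. FST was 0.94 ± 0.24 higher with BMP4 than with FGF2 (SE, interval 0.38 to 1.50, limma adjusted p = 0.152), which did not pass, and none of 7 members was called by limma between the factors, beside 1.44% of all genes. Arrays of both factors did not overlap for BMPR1A, NOG and FST, beside 31.4% of all genes. At an unadjusted p under 0.05, 1 member would be counted there.

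In PA6 cells FST gave 12.57, 12.07 and 12.24 in -GFs, 12.81, 12.44 and 12.52 with FGF2, and 12.60, 12.26 and 12.37 with BMP4, and these groups overlapped. The FGF2 change there was 0.30 ± 0.17 (SE, interval -0.10 to 0.69). None of 7 members was called with BMP4 in PA6 cells, where limma called 0% of all genes, and none with FGF2. At an unadjusted p under 0.05 there was 1 member in each, BMPR1A and BMP4. In PA6 cells arrays did not overlap for BMP4 with FGF2 (16.7% of all genes), for BMPR1A with BMP4 (14.9%), and for BMP4 and BMPR1A between the factors (15.5%). For FST the test of the difference in the FGF2 change between both kinds of culture gave -1.41 ± 0.29 (SE, limma adjusted p = 0.0118), and 7.9% of all genes passed that test. This call held in all 12 alternatives run and without each of the 16 arrays in turn. Among the 6 groups, the 3 PA6 groups overlapped each other and lay above all co-cultures, -GFs and BMP4 co-cultures overlapped, and FGF2 co-cultures were lowest. The difference from PA6 cells was -2.39 ± 0.19 with FGF2 (SE, 5.26-fold lower, limma adjusted p = 1.38e-07) and -1.27 ± 0.22 with BMP4 (SE, limma adjusted p = 0.00019). In -GFs it was -0.99 ± 0.22 (SE, limma adjusted p = 0.00133), just under the minimum change. The stromal marker sum overlapped between the co-cultures, at 54850 to 55581 in -GFs and 49640 to 55706 with FGF2. The blood cell, endothelial and pluripotency sums given beside BMP4 were higher with FGF2 without overlap. The neural sum was lower without overlap, at 12568 to 18673 in -GFs and 9366 to 10372 with FGF2. In it HES5 was lower with FGF2, while STMN2 overlapped. The part of these markers in the FST values was not tested.

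**Figure D2:**
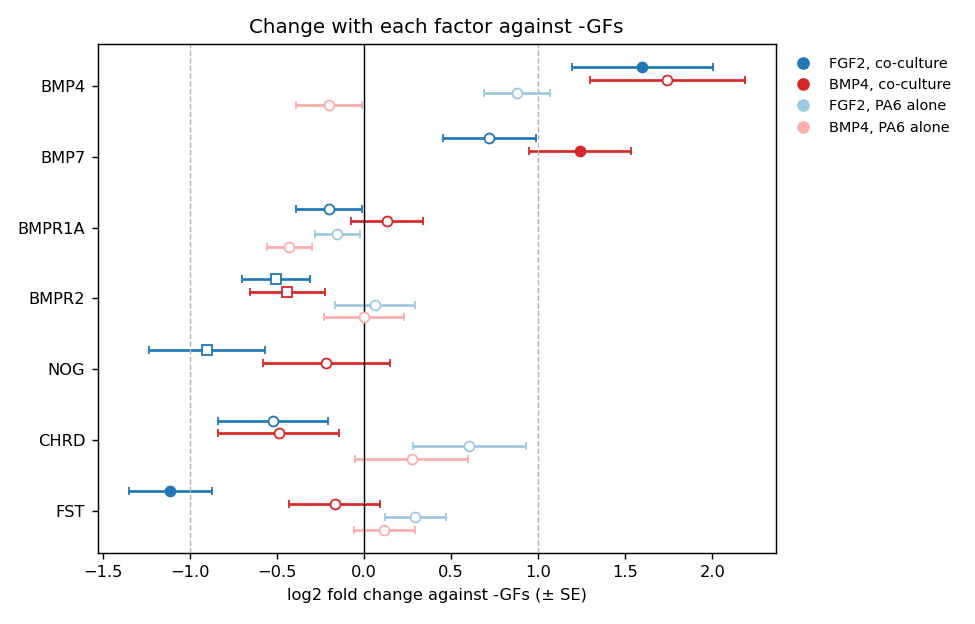
Log2 fold change of the 7 tested genes with FGF2 or BMP4 against -GFs (horizontal axis, ± SE) in co-cultures and in PA6 cells alone, with dashed lines at the minimum change of 1. Filled points were called. Squares mark fitted values of a gene undetected on every array of 1 of the 2 groups, and genes undetected in both were left out. BMP4 and FST with FGF2 and BMP7 with BMP4, all in co-cultures, were the 3 calls.

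Noggin (NOG) binds BMPs tightly and is made by neural and axial tissue. It was detected on 3 of 16 arrays, all co-cultures, with 6.37 (undetected) and 7.52 in -GFs, 5.86, 6.09 and 6.18 (all undetected) with FGF2, and 6.88 and 6.58 with BMP4. The 2 -GFs arrays lay far apart. Against the detection level NOG was at least 1.39-fold lower with FGF2 than in -GFs, with means of 6.04 and 6.95, but did not pass (limma adjusted p = 0.166). PA6 arrays lay between 5.27 and 5.68, all undetected. Co-cultures were at least 1.19-fold higher than PA6 cells in -GFs (limma adjusted p = 0.000265), a value carried by -GFs replicate 2. Without that array the fitted difference, which is no bound, went from 1.42 to 0.85 and the call was lost. With BMP4 the means were 6.73 and 5.43 (limma adjusted p = 0.000596), but the co-culture mean did not exceed the detection level of the PA6 arrays, so that no bound is given. NOG passed the filter through BMP4 co-cultures alone, so its tests against PA6 cells were not independent of the filter. The neural markers summed to 12568 to 18673 in -GFs, 9366 to 10372 in FGF2 and 6518 to 6580 in BMP4 co-cultures, with 3 of 6, 4 of 6 and 3 of 6 undetected. PAX6, a marker of neural progenitors, was undetected in all 3. HES5 was 12.57 to 12.70, 10.40 to 10.62 and 11.12 to 11.39 in turn. STMN2 was 12.45 to 13.59, 12.89 to 13.11 and 11.83 to 11.99, so that it overlapped between -GFs and FGF2. The part of these markers in the NOG values was not tested.

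Chordin (CHRD), which holds BMPs until it is cleaved, was detected on all arrays and called with neither factor. In co-cultures it gave 9.59 and 10.18 in -GFs, 8.91, 9.50 and 9.68 with FGF2, and 9.68 and 9.10 with BMP4. In PA6 cells it gave 10.05, 10.53 and 9.09 in -GFs, 10.31, 10.59 and 10.59 with FGF2, and 9.89, 10.24 and 10.36 with BMP4. PA6 -GFs replicate 3 was the lowest of the 9. The changes in co-cultures were -0.52 ± 0.32 with FGF2 (SE, interval -1.27 to 0.23) and -0.49 ± 0.35 with BMP4 (SE, interval -1.31 to 0.33), and in PA6 cells 0.60 ± 0.32 (SE, interval -0.13 to 1.34) and 0.27 ± 0.32 (SE, interval -0.46 to 1.01). Co-cultures with FGF2 were lower than PA6 cells with FGF2, with a difference of -1.13 ± 0.33 (SE, limma adjusted p = 0.00704), and without co-culture FGF2 replicate 1 the difference was -0.91 and no longer called.

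Gremlin (GREM1), an antagonist made by mesenchymal cells, was undetected in all co-cultures, at 5.98 to 6.22. In PA6 cells it was detected on 5 of 9 arrays, with 6.20 (undetected), 6.94 and 7.36 in -GFs, 5.64, 6.41 (both undetected) and 6.73 with FGF2, and 5.90 (undetected), 7.55 and 7.42 with BMP4. No group had it on every array, and it was not tested in the filtered fit. In the fit without a filter no GREM1 difference passed.

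**Figure D3:**
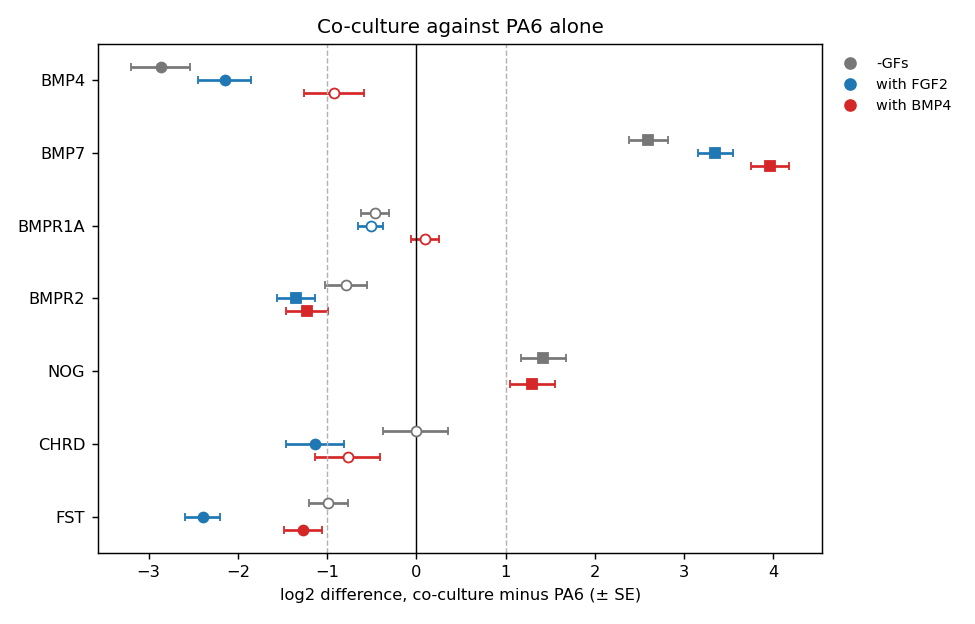
Log2 difference of co-cultures from PA6 cells alone (horizontal axis, ± SE) for the 7 tested genes, in -GFs, with FGF2 and with BMP4. Filled points were called, and dashed lines mark the minimum change of 1. Squares mark fitted values of a gene undetected on every array of 1 of the 2 groups, which are no bounds, and NOG with FGF2, undetected in both, was left out. BMP7 lay above 0 and BMP4, BMPR2 and FST below it in all 3 conditions.

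In -GFs 3 of 7 members were called between co-cultures and PA6 cells, beside 44.1% of all genes, with FGF2 5 of 7 beside 46.4%, and with BMP4 4 of 7 beside 42.4%. The arrays did not overlap for 6, 7 and 6 of 7 members, beside 74.9%, 71% and 75.3% of all genes. Both shares of members were near those of all genes, given 7 members. The 7 with FGF2 include NOG, which was undetected on every array of both groups. The calls include BMP7 in every condition, NOG in -GFs and with BMP4, and BMPR2 with either factor. These genes passed the filter through 1 kind of culture alone, the one where they were higher. The median member difference was -0.46, -1.13 and -0.77 in turn, and that of all genes 0.03, -0.04 and 0.01. With undetected genes at their bound, or at 0 where there was none, the member medians were -0.46, -0.82 and -0.77.

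The response of the BMP4 transcript to added BMP4 differed between the kinds of culture. The change in co-cultures exceeded that in PA6 cells by 1.94 ± 0.47 (SE, limma adjusted p = 0.0412), beside 4.23% of all genes. The call was lost without co-culture BMP4 replicate 1 (1.59) or co-culture -GFs replicate 1 (1.42). BMP7 passed the same test (limma adjusted p = 0.0300), but its PA6 arrays were all at background, so that its response in PA6 cells was not measured and no difference is given. No difference passed for the FGF2 response of BMP4 (0.72 ± 0.45 SE, interval -0.24 to 1.68). These comparisons share the PA6 and -GFs arrays.

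The other BMP pathway genes comprised 55 names in 5 lists, of which 51 stood on the array and 29 were tested. In co-cultures 2 rose and 2 fell with FGF2, beside the 7.42% of all genes called, and 3 rose and 2 fell with BMP4, beside 3.75%. Between the factors 2 were higher with BMP4 and none lower, beside 1.44%, and in PA6 cells none was called by limma in any of the 3 factor comparisons. In PA6 cells with FGF2, 1536 of 14829 genes had an unadjusted p under 0.05, and 1334 with BMP4.

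Among other ligands, 2 of 12 were tested. GDF3, a member of the family made by pluripotent cells, was 9.68 to 9.95 in -GFs, 11.66 to 12.05 with FGF2 and 10.73 to 11.29 with BMP4. It rose by 2.10 ± 0.24 with FGF2 (SE, limma adjusted p = 0.00718) and by 1.20 ± 0.26 with BMP4 (SE, limma adjusted p = 0.0755). The pluripotency marker sum moved in the same order, and its part was not tested.

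Of 8 tested receptors and co-receptors, 2 fell with each factor. BMPR1B, a type I receptor, was 10.00 to 10.21 in -GFs, 8.11 to 8.93 with FGF2 and 8.55 to 8.97 with BMP4, changes of -1.62 ± 0.28 (SE, limma adjusted p = 0.0213) and -1.35 ± 0.30 (SE, limma adjusted p = 0.0821). The co-receptor RGMA was 11.62 to 11.91 in -GFs, 10.62 to 10.91 with FGF2 and 10.45 to 10.58 with BMP4. It changed by -1.04 ± 0.19 (SE, limma adjusted p = 0.0242) and -1.25 ± 0.20 (SE, limma adjusted p = 0.0342). Both comparisons used the same -GFs arrays. The neural marker sum given beside NOG was also lower with either factor without overlap, and its part was not tested. BMPR1A, described above, was called with neither factor.

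Of 9 tested antagonists and modulators 1 rose with BMP4, and none was called by limma with FGF2. SOSTDC1, a secreted antagonist of BMP and WNT signalling, was 7.20 to 8.76 in -GFs, 8.41 to 9.11 with FGF2 and 10.73 to 11.36 with BMP4. It rose by 3.07 ± 0.51 over -GFs (SE, limma adjusted p = 0.0363) and by 2.30 ± 0.46 over FGF2 (SE, limma adjusted p = 0.0986). The surface epithelium markers named beside BMP7 were high on the same 2 arrays, and their part was not tested.

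Inside the cell, SMURF1, a ubiquitin ligase for BMP SMADs, rose by 1.41 ± 0.35 with FGF2 (SE, limma adjusted p = 0.0607). This was the single call with a factor in co-cultures among 5 tested SMADs and SMURFs. Of 5 tested target genes, ID3 alone was called with a factor in co-cultures. It was 8.93 to 9.03 in -GFs, 8.57 to 9.38 with FGF2 and 10.14 to 10.48 with BMP4, and it rose by 1.33 ± 0.29 over -GFs (SE, limma adjusted p = 0.0755) and by 1.32 ± 0.26 over FGF2 (SE, limma adjusted p = 0.0967). ID1 gave 0.56 ± 0.39 with BMP4 (SE, limma adjusted p = 0.595), and ID2 gave -0.53 ± 0.35 (SE, limma adjusted p = 0.57). ID4 had means of 10.29 in -GFs and 9.34 with BMP4, and MSX1 of 8.95 and 9.51, and neither was called.

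**Figure D4:**
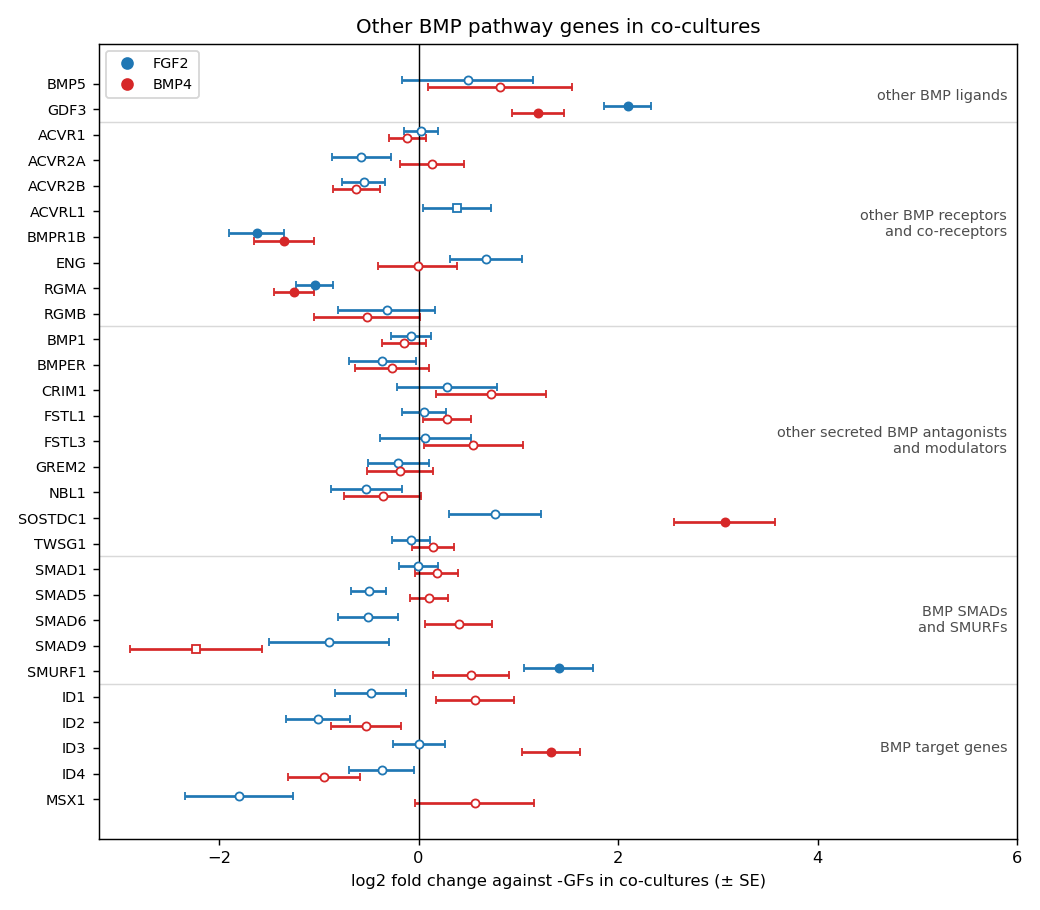
Log2 fold change of the 29 other tested BMP pathway genes in co-cultures (horizontal axis, ± SE) with FGF2 and with BMP4 against -GFs, grouped by role. Squares mark fitted values of a gene undetected on every array of 1 of the 2 groups, and ACVRL1 with BMP4, undetected in both, was left out. Filled points were called, namely GDF3, BMPR1B and RGMA with both factors, SMURF1 with FGF2, and SOSTDC1 and ID3 with BMP4.

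Between co-cultures and PA6 cells, 7 of these 29 genes were higher and 11 lower in -GFs, 6 and 12 with FGF2, and 7 and 12 with BMP4. Of all genes, 22.3% were called higher and 21.8% lower in -GFs, 23.4% and 22.9% with FGF2, and 22.0% and 20.3% with BMP4. Of the 9 tested antagonists and modulators, 6 were lower in co-cultures in -GFs and 7 with either factor. BMPER, a modulator that binds BMPs, was 9.26 to 10.31 in co-cultures and 12.48 to 13.37 in PA6 cells. TWSG1, a partner of chordin, was 12.64 to 13.19 and 13.80 to 14.44. The inhibitory SMAD6 was 6.89 to 8.10 in co-cultures and 9.89 to 10.50 in PA6 cells, with a difference of -2.72 ± 0.23 in -GFs (SE, limma adjusted p = 2.76e-07). In the other direction, the receptor ACVR2B had a mean of 13.68 in co-cultures and 10.33 in PA6 cells in -GFs (3.35 ± 0.25 SE, limma adjusted p = 9.44e-08). The stromal marker sum moved with the first of these directions and the pluripotency sum with the second, and their part was not tested.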

How the data were processed

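RNA of 16 cultures was measured on MouseWG-6 v2.0 BeadChips (Illumina), with 1 array for each culture. The deposited table gives, per probe and array, an average bead intensity that the authors exported from GenomeStudio 2011.01 without normalization, and a deposited detection p-value. The table held no coordinates or build. The authors' own comparisons used cubic spline normalized values, which were not used here.

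Intensities were background corrected (normexp, from the detection p-values), given an offset of 16, quantile normalized and put on the log2 scale by means of limma 3.58.1 (R 4.3.3). The filter kept 20880 probes whose detection p was under 0.05 on all arrays of 1 or more of the 6 groups. Where a gene had several, that with the largest mean stood for it, leaving 14829 genes. Linear models with moderated variances were fitted to the 7 co-culture arrays, to the 9 PA6 arrays, and to all 16 arrays for differences between kinds of culture. P-values were adjusted over all genes (Benjamini-Hochberg). A gene was called at an adjusted p under 0.1 and a log2 change over 1 in size, the limits in the study's methods. Where all arrays of 1 of the 2 groups compared left a gene undetected, its fold was given as a bound, the mean of the brighter group against the higher of the detection level and the probe's own value on each array. The number of arrays limits the precision. The fits were tested on simulated data.

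The members and gene lists were chosen with earlier results of these data known. The labels' sample titles gave the groups. All 9 members were named, and of the other pathway genes those called, at most the 4 with the lowest adjusted p in each direction, of which only some are described between the kinds of culture. Genes with the most similar pattern were named for called members.

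Replicate numbers come from the sample titles. Same-numbered PA6 arrays deviated together at correlations of 0.105 to 0.199 for BMP4 and FGF2, so that the numbers paired these 2 groups. The other same-numbered PA6 pairs gave 0.070 to 0.184, and PA6 pairs of unlike number -0.136 to -0.012. The numbers thus went with all PA6 groups. The main fits used no pairing, and the replicate number served as an alternative block. Co-culture arrays deviated together by their run of neighbouring columns in the table (0.098 to 0.283, over 0.1 in 4 of 5 pairs) rather than by number (-0.199 to 0.098 for 4 pairs of equal number in different runs). No label names these runs, so that the run served as an alternative block. No 2 arrays held identical values. Alternatives covered thresholds, filters, scaling, background, offset, probes, variance prior, array weights, blocks and each array left out.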

Additional observations from a re-analysis of the deposited data

Results flagged for a closer look

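For 2 results the effect of a growth factor was tested to differ between co-cultures and PA6 cells alone. The change of FST with FGF2 in co-cultures minus that in PA6 cells was -1.41 ± 0.29 on the log2 scale (SE, limma adjusted p = 0.0118), with changes of -1.11 in co-cultures and 0.30 in PA6 cells. The change of the BMP4 transcript with added BMP4 differed by 1.94 ± 0.47 (SE, limma adjusted p = 0.0412), with changes of 1.74 and -0.20. Between -GFs and BMP4 co-cultures stromal markers summed to 54850 to 55581 and 51903 to 62217, surface epithelium markers to 257 to 297 and 13049 to 29276, endothelial markers to 485 to 574 and 1271 to 1611, blood cell markers to 386 to 471 and 753 to 2515, and pluripotency markers to 8570 to 8734 and 16486 to 30360. With FGF2 the blood cell markers summed to 3326 to 6531, the endothelial markers to 1986 to 3231 and the pluripotency markers to 44741 to 53764. The neural markers were lower with either factor, at 12568 to 18673 in -GFs, 9366 to 10372 with FGF2 and 6518 to 6580 with BMP4. The part of these markers in both differences was not tested.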

How the results depend on the processing

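Of 77 changes of a member in a comparison, 19 were called, 8 of these kept their call in every alternative and without each array, and none turned its sign. Another 11 changes became called in at least 1 setting. With FGF2 in co-cultures, 2 members were called, against 1 at an adjusted p under 0.05, 1 without a detection filter, 1 with the replicate block and 0 to 2 without an array. With BMP4 in co-cultures, 1 was called, against 0 at 0.05, with detection on all 16 arrays, without a filter, with every probe tested, with the replicate block and with the column run block, and 2 with median scaling, an offset of 50, a variance trend, array weights and all arrays in 1 fit, and 0 to 1 without an array. Between the factors in PA6 cells, 1 was called, against 0 at 0.05, without a filter, with median scaling, with every probe tested and with all arrays in 1 fit, and 0 to 1 without an array. Between the kinds of culture in -GFs, 3 were called, against 6 without a minimum change, 1 with detection on all 16 arrays and 3 to 4 without an array. With FGF2 it was 5, against 7 without a minimum change, 3 with detection on all arrays, 3 without background correction and 4 to 5 without an array. With BMP4 it was 4, against 6 without a minimum change, 1 with detection on all arrays, 2 with an offset of 50 and 4 to 6 without an array. For the differences of effects, 1 was called for FGF2, with 1 to 2 without an array, and 2 for BMP4 (the BMP7 call being set against background), with 1 on all-array detection and 0 to 2 without an array. The cause of these shifts was not tested, beyond the fewer probes kept by stricter detection. Co-culture numbers were not paired. There the replicate block gave 1.45 for BMP4 (adjusted p = 0.166) and -1.24 for FST (adjusted p = 0.0729) with FGF2, and the column run block 1.37 (adjusted p = 0.0511) and -1.06 (adjusted p = 0.0985). In PA6 cells pairing changed no member's call. Median scaling moved the median change of all genes from -0.06 to -0.21 with FGF2 and from 0.04 to 0.29 between the factors in co-cultures, shifts of -0.15 and 0.25. The shifts of the other comparisons lay within these. With it the share of called genes that were higher went from 52.3% to 63.8% between the factors in co-cultures and from 34.8% to 45.5% between them in PA6 cells. It went from 62.3% to 75.2% (FGF2) and 61.6% to 77.4% (BMP4) for the differences of effects. It fell from 68.4% to 59.5% with FGF2 in co-cultures. Between the kinds of culture it fell from 50.6% to 46% in -GFs and from 50.5% to 45.2% with FGF2. Between the factors in co-cultures 214 genes were called, against 494 with median scaling, 560 with the column run block and 11 with the replicate block. Dim probes near the detection level (BMPR2, NOG, GREM1) limit what could be seen.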

Other observations

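The genes whose log2 values followed a called member most closely were listed as a description, over arrays that share their groups and their normalization. Over the 7 co-culture arrays, BMP4 was matched best by LOC669660 (Pearson r = 0.991) and MYLPF (r = 0.989), BMP7 by 1700016K19RIK (r = 0.989) and LOC624662 (r = 0.987), and FST by 3930401K13RIK (r = 0.989) and D15MIT260 (r = 0.983). Over the 9 PA6 arrays, BMP4 was matched best by TPPP (r = 0.971) and FMR1 (r = 0.963). These are the highest among the 14829 genes tested, over few arrays. No other BMP pathway gene was among them.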
